A study of Rattus norvegicus with 8 samples.

Results

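The 6 secreted antimicrobial genes, the beta-defensins Defb1, Defb4 and Defb5, the cathelicidin gene Camp, the protease inhibitor gene Slpi and the lipocalin gene Lcn2, were followed in the skin (full thickness) of male Sprague-Dawley (SD) rats. They were taken from 7 symbols by matching the RefSeq accession of each array probe to a gene table, and 6 of the 7 were found among 13903 named genes and 24684 probes. Defb3 had no probe of its own and stood in the table only as an older name of Defb4. Each of the 6 genes was read by 1 probe printed as 1 spot. The genes were chosen by their STZ minus sham differences in log2 intensity on these arrays, so those differences are given as a description and carry no test.

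The sham group received sodium citrate solution and the STZ group 60 mg/kg streptozotocin intraperitoneally, a toxin of pancreatic beta cells used to induce diabetes, both at 4 weeks of age. Skin was taken 4 weeks later, at 8 weeks. The protocol text also speaks of a cutaneous wound made after that interval, and it does not say whether the sampled skin was wounded. Blood glucose values were not used here, and the sources used here do not say which of the rats are on which array. The purpose stated in the title was an expression signature of STZ skin, and the comparison below asks how these antimicrobial genes stand in it.

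Expression was read on Agilent arrays with 1 dye, Cy3. The 8 labelled samples, 4 per group, were 4 arrays on 1 slide that had each been scanned 2 times. Samples 1 and 3, and 2 and 4, of each group had log2 differences with an SD of 0.0737 to 0.0916 and shared their deviations between spots (correlation 0.899 to 0.967 over 16106 spots). The 24 other pairs had SDs of 0.810 to 1.48 and correlations of 0.347 to 0.663. The 2 scans were therefore averaged, and n is 2 arrays per group throughout, called array 1 and array 2. STZ array 2 was the dimmest, with a 75th percentile intensity of 606 to 624 against 1138 to 1496 on the others. Between 20265 and 22872 probes per sample were well above background, and no spot was saturated. The skin label was matched by Krt14, the keratin of basal epidermis, which lay between 5.54 and 7.35 on all 4 arrays, in log2 over the 75th percentile. Krt2, a keratin of upper epidermis, was well above background in 3 of 4 sham and 0 of 4 STZ samples. Its levels overlapped, at -5.89 and -6.62 on the sham arrays and -7.87 and -6.16 on the STZ arrays.

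Antimicrobial proteins of the skin are made by keratinocytes, glands and infiltrating myeloid cells and kill or restrain microbes at the surface. Beta-defensins are small cationic peptides held together by disulphide bonds, and they disturb microbial membranes and attract immune cells. Cathelicidin is stored in neutrophil granules and is also made by keratinocytes, which release it as a precursor that proteases cut. The Slpi protein inhibits neutrophil elastase and cathepsin G, and lipocalin 2 withholds iron from bacteria by binding their siderophores. Several of these genes are known to be induced by interleukin 17, interleukin 1 and microbial ligands through NF-kB and C/EBP factors.

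Because most of these genes stood higher in STZ skin together, their promoters are shown first. A RefSeq promoter window, from 250 bases before to 50 bases after the start, was held for 3 of the 6 genes on the rat build GRCr8, while Defb1, Defb4 and Slpi were not matched. The windows are Defb5 at chr16:77317779-77318078, Camp at chr8:118721949-118722248 and Lcn2 at chr3:36081731-36082030, all on the minus strand. They are printed 5′ to 3′ in the direction of transcription, with motif matches in capitals.
Defb5: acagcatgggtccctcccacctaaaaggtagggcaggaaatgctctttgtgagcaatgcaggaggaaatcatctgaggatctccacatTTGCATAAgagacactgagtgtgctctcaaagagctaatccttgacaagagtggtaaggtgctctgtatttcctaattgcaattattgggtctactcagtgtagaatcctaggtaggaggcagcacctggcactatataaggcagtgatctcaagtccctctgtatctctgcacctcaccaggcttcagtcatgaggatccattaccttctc
Camp: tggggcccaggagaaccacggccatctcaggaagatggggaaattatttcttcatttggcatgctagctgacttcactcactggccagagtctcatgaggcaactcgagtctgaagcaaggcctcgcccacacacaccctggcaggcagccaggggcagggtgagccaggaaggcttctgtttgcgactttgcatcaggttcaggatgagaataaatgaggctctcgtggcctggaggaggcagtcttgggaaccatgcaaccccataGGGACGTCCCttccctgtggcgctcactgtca
Lcn2: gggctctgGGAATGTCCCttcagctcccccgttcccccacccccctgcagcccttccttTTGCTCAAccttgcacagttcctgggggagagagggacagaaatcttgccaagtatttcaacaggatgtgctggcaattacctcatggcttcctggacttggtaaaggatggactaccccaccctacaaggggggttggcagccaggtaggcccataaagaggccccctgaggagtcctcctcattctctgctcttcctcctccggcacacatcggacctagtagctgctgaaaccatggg
The capitals in Defb5 are TTGCATAA, a match to the C/EBP pattern TTGCNNAA at bases 89 to 96 of the window. In Camp they are GGGACGTCCC, a match to the NF-kB consensus at bases 269 to 278, which lies after the start and reads as a match on both strands. In Lcn2 they are GGAATGTCCC at bases 9 to 18, which matches the NF-kB consensus on the opposite strand, and the C/EBP match TTGCTCAA at bases 60 to 67. Both strands were searched, and no 2 different motifs overlapped in these windows. Among 27457 rat promoters of this length, 7.6% held an NF-kB match and 10.5% a C/EBP match, against 2 of 3 windows each here. The STAT pattern TTCNNNGAA, the AP-1 pattern TGANTCA and the TATA box letters TATAAA were in none of the 3 windows. They were in 8.68%, 7.33% and 14.3% of all promoters. Only the exact letters TATAAA were searched. Variants of the TATA box were not counted, among them the letters tatataag in the Defb5 window, so its absence is not shown. A match describes letters in the window and does not show binding.

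Levels below are log2 intensities over the 75th percentile of the same array, so 0 is the brightness of that percentile. Differences are log2, STZ minus sham, with the median difference over the tested probes (0.23, higher in STZ) taken off. The same amount is taken off where pairs of arrays are compared. Levels belong to 1 probe each and are not compared between genes.

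Defb5, a peptide of the beta-defensin family, passed the well-above-background flag in 0 of 4 sham samples and in 4 of 4 STZ samples. Its level was -8.80 and -9.11 on sham arrays 1 and 2, and 0.87 and 0.53 on STZ arrays 1 and 2. The sham arrays thus sat at background and both STZ arrays near their 75th percentile, with raw intensities of 2.63 and 2.38 against 2725 and 887. With each sham value replaced by the lowest signal well above background on its array, STZ skin was 264-fold higher (8.05 on the log2 scale). That signal is no firm detection limit, since Il17a and Fpr1 lay above it in sham without being well above background. The measured means were -8.96 ± 0.22 in sham and 0.70 ± 0.24 in STZ (SD, n = 2 each), a difference of 9.43 that rests on sham values below background. With another background correction (normexp), which lifts dim values, that difference was 4.35.

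Defb4, a beta-defensin that epithelia make in inflammation, showed the same order of arrays. Its level was -6.33 and -7.07 on the sham arrays and 2.75 and 2.17 on the STZ arrays. Both STZ arrays lay above both sham arrays, by 8.28 to 9.60 over the 4 array pairs. The sham mean was -6.70 ± 0.52 and the STZ mean 2.46 ± 0.41 (SD, n = 2 each), a relative difference of 8.94 or 490-fold. The probe was well above background in 3 of 4 sham samples, and the scans of sham array 2 fell on either side of that limit and differed by 0.55. With normexp the difference was 6.16.

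Defb1, the constitutively expressed beta-defensin of epithelia, was well above background in every sample and differed little. Its level was 2.02 and 2.14 on the sham arrays and 3.36 and 2.42 on the STZ arrays. STZ array 2 sat only just above the sham arrays, and STZ array 1 well above them. The means were 2.08 ± 0.09 and 2.89 ± 0.66 (SD, n = 2 each), a relative difference of 0.59 or 1.50-fold. The array pairs differed by 0.05 to 1.12. Against the sham mean STZ array 1 was 1.06 higher and STZ array 2 was 0.12 higher. Without STZ array 1 the difference turned to -0.039. That value sets STZ array 2 against the same sham mean. Only the median difference over the tested probes, taken anew for that setting, changed its sign.

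The level of Slpi was 2.36 and 0.55 on the sham arrays and 6.25 and 6.06 on the STZ arrays. The STZ arrays lay close together, whereas the sham arrays differed by 1.81, the widest gap within a group among these genes. The means were 1.45 ± 1.28 and 6.15 ± 0.14 (SD, n = 2 each), a relative difference of 4.47 or 22.2-fold. It was 5.40 without sham array 1 and 3.54 without sham array 2.

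Camp was well above background in all 8 samples. Its level was -4.17 and -4.12 on the sham arrays and -0.79 and -0.98 on the STZ arrays. Both groups were tight and did not overlap, with array pairs 2.92 to 3.15 apart. The means were -4.15 ± 0.03 and -0.88 ± 0.14 (SD, n = 2 each), a relative difference of 3.04 or 8.21-fold. With normexp it was 2.22.

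Lcn2 lay at -2.44 and -2.67 on the sham arrays and at 0.71 and -0.07 on the STZ arrays. The STZ arrays were both above the sham arrays, STZ array 1 more so. The means were -2.55 ± 0.16 and 0.32 ± 0.55 (SD, n = 2 each), a relative difference of 2.65 or 6.27-fold, with array pairs 2.15 to 3.15 apart.

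**Figure D1:**
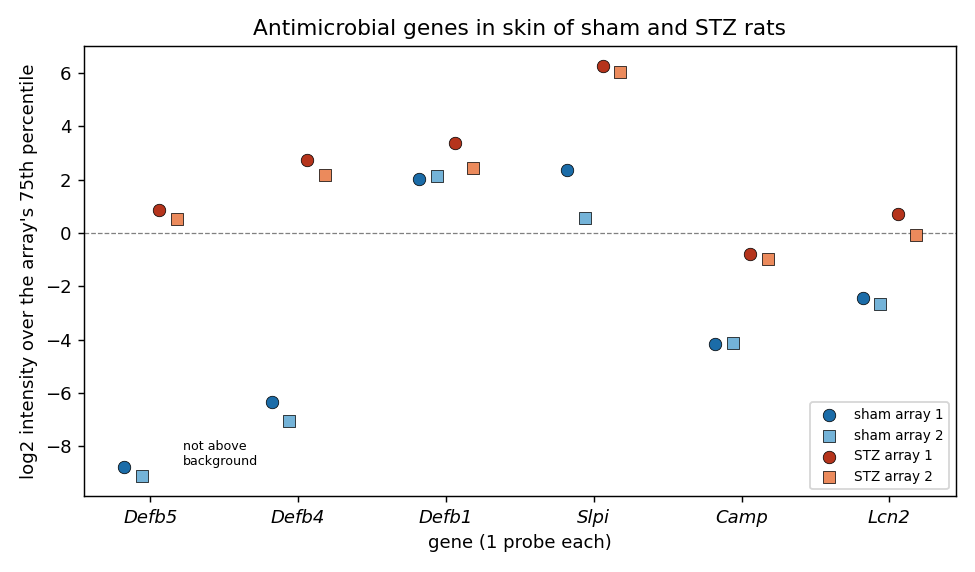
Vertical axis, log2 of intensity divided by that array's 75th percentile, for the 6 antimicrobial genes (horizontal axis, 1 probe each) on 2 sham arrays (blue) and 2 STZ arrays (red and orange), each point being the mean of 2 scans. The STZ points lie above the sham points for all 6 genes, with the closest pair 0.28 apart for Defb1 and 9.33 apart for Defb5, whose sham points are not well above background.

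All 6 genes had both STZ arrays above both sham arrays, and 5 of the 6 had a relative difference of at least 2. Of all 21512 tested probes, 26.9% did not overlap in that direction, 17.9% did not overlap in the other, and 4.75% reached a difference of 2. The choice of genes used this contrast, so nothing is read from those shares. The median difference of the 6 was 3.75, and the quartiles of all tested probes were -0.51 and 0.66. All 6 passed the filter on dim probes, Defb5 through the STZ samples alone, and 4 were well above background in all 8 samples. All 6 were also higher on STZ array 1 than on STZ array 2. An exact permutation test of 2 arrays against 2 cannot give a p below 0.333. The design text speaks of 4 sham rats, without saying which rats, alone or pooled, are on which array, so the spread between the 2 arrays of a group may be partly technical.

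**Figure D2:**
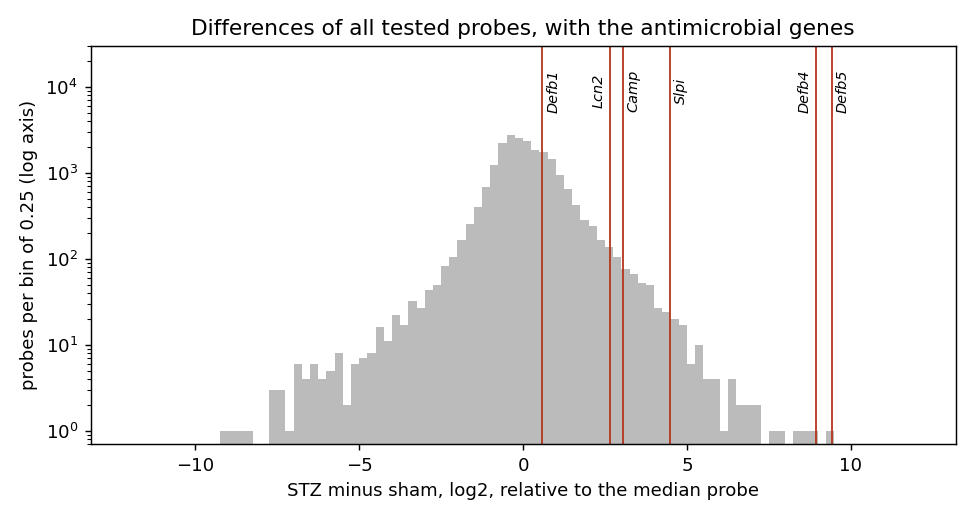
Number of tested probes per bin of 0.25 (vertical log axis) by their STZ minus sham log2 difference relative to the median probe (horizontal axis), with red lines at the 6 antimicrobial genes. Defb1 at 0.59 lies in the bulk of all probes, Lcn2 at 2.65, Camp at 3.04 and Slpi at 4.47 lie in the upper tail, and Defb4 at 8.94 and Defb5 at 9.43 lie at its end.

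Defb4 and Defb5 are next to each other in the gene order of chromosome 16, in a cluster that holds other beta-defensins and the alpha-defensins. Defb14, the counterpart of human beta-defensin 3, is the next gene on the other side of Defb4. Its level was 0.42 and -0.91 on the sham arrays and 4.12 and 2.94 on the STZ arrays, a relative difference of 3.55 ± 0.70 (SE, adjusted p = 0.171 in the limma fit). These 3 adjacent genes were all more than 2 higher on both STZ arrays. Defb1 lies 20 genes from Defb5 in the same cluster, and its nearest measured neighbours ranged from -0.82 (Defb2, above background in 1 sample) to 1.34 (Defal1).

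Over the rest of the beta-defensin family the STZ arrays did not show 1 pattern. Of 32 other beta-defensin genes on the array 25 passed the filter, 22 of them higher and 3 lower than the median probe, with a median difference of 0.79. At an unadjusted p under 0.05 in limma 3 of the 25 were higher and none was lower, where 7.32% of all tested probes were higher and 3.52% lower, and none passed after adjustment. Against sham the median of the 25 was -0.14 on STZ array 1 and 1.68 on STZ array 2, and Defb14 alone was at least 2 higher on both, as were 2.26% of all tested probes. Defb38, with no sham sample well above background, was 2.71-fold higher with sham values replaced as for Defb5 (measured difference 2.50, adjusted p = 0.323 in limma). Defb51 stood 3.35 ± 1.22 higher (adjusted p = 0.402), with -5.93 on STZ array 1 and -2.99 on STZ array 2. Defb33 had no sham sample well above background either, and its measured difference was 1.48. Without STZ array 2 the family median was 0.06, and without STZ array 1 it was 1.53. Defb40 and Defb41 were well above background in no sample.

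The alpha-defensins, which in rats are products of neutrophils and Paneth cells, gave the same split. Of 9 genes 7 passed the filter, and all 7 were higher, with a median of 0.87. That median was 0.11 on STZ array 1 and 1.78 on STZ array 2. Defa9 was 1.49 ± 0.66 higher and was the only one of the 7 at an unadjusted p under 0.05 (adjusted p = 0.452 in limma), a threshold passed upwards by 7.32% of all tested probes. Np4 at 1.59, Defal1 at 1.34 and RatNP-3b at 0.81 followed. Alpha-defensin genes are close copies, so the value of each is uncertain where a probe cannot tell them apart.

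Dim probes as a whole behaved differently on the 2 STZ arrays. Over the 6652 tested probes with a sham mean under -4 the median difference was 0.03 on STZ array 1 and 1.47 on STZ array 2, while over the 14860 others it was -0.30 and -0.26. Of the 25 other beta-defensins 14 were that dim in sham, and so were all 7 alpha-defensins. The part of array brightness in the family values was not tested. Defb4, Defb5 and Camp were also that dim in sham, and the part of array brightness in their values was not tested either.

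**Figure D3:**
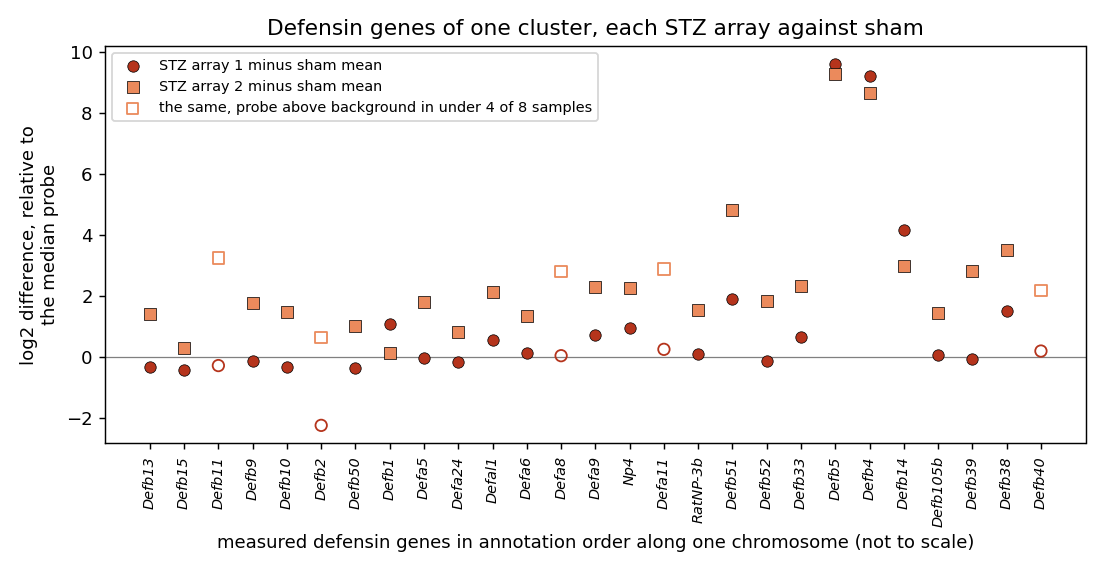
STZ minus sham log2 difference relative to the median probe (vertical axis) of the measured defensin genes of chromosome 16 in annotation order, not to scale (horizontal axis), for STZ array 1 (circles) and STZ array 2 (squares) against the sham mean. Open symbols are probes well above background in under 4 of 8 samples. Defb5, Defb4 and Defb14 are high on both arrays, while most other genes are near 0 on STZ array 1 and higher on STZ array 2.

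Genes next to Lcn2, Camp and Slpi gave smaller differences than these 3. The nearest 3 measured genes on each side of Lcn2 ranged from -1.11 (Ak1) to 0.80 (Dnm1), and those of Camp from -2.07 (Plxnb1) to 0.45 (Spink8). Around Slpi they ranged from -0.04 (Matn4) to 1.95 (Svs6, well above background in 2 STZ samples only).

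The pathway around these genes was described over 6 lists written with earlier results of these data known. Together they held 120 tested genes, of which 35 (29.2%) stood higher at an unadjusted p under 0.05 in limma, against 7.32% of all tested probes, and 4 stood lower, against 3.52%. None of the 120, and 0 of all probes, passed after Benjamini-Hochberg adjustment, so the values below do not pass the test. The 24 genes taken from these lists by smallest p, up to 4 a list, had adjusted p between 0.0863 and 0.610.

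Among other secreted antimicrobial proteins 28 of 33 genes on the array were tested, 24 higher and 4 lower than the median probe, with a median of 0.95. At the unadjusted threshold 9 were higher and 1 lower. The lower gene was S100a7a at -3.98 (adjusted p = 0.202 in limma), with 2.26 and 1.13 on the sham arrays and -1.12 and -2.99 on the STZ arrays. Wfdc18, a whey acidic protein domain gene like Slpi, was 6.26 ± 0.78 higher (adjusted p = 0.101 in limma). It lay at -1.91 and -3.99 on the sham arrays and at 3.58 and 3.50 on the STZ arrays. S100a8, a subunit of the metal-binding protein calprotectin, was 5.30 ± 0.42 higher (adjusted p = 0.0950). Ccl20, a chemokine with antimicrobial activity that shares the receptor Ccr6 with beta-defensins, was 3.05 ± 0.60 higher (adjusted p = 0.171). Lyz2, the lysozyme of macrophages, was 2.84 ± 0.65 higher (adjusted p = 0.202). The list median was 0.27 on STZ array 1 and 1.74 on STZ array 2.

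The inducing cytokines and pattern receptors held 28 tested genes, 21 higher and 7 lower, with a median of 0.96 and with 13 higher and 1 lower at the unadjusted threshold. Il17a, the signature cytokine of the T helper 17 lineage, was well above background in no sham sample and lay at -7.07 and -7.37 there and at -3.07 and -2.99 on the STZ arrays. Those sham signals still lie above the lowest signal well above background on their arrays and were not replaced. The measured difference was 3.96 (adjusted p = 0.101 in limma). Il17f, its close relative, was also not above background in sham and was 7.02-fold higher with sham values replaced as for Defb5. Il24, a cytokine of the interleukin 20 group, was 5.74 ± 0.61 higher, and Il1b, the proinflammatory interleukin 1, was 4.16 ± 0.51 higher (adjusted p = 0.101 each). In this list the STZ arrays were closer, with medians of 1.31 and 0.96, and 10 of the 28 genes were at least 2 higher on both, against 2.26% of all tested probes.

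Signal adaptors and transcription factors followed. Of 18 tested genes 13 were higher and 5 lower, with a median of 0.21 that was 0.52 on STZ array 1 and -0.05 on STZ array 2, and it was 0.84 without STZ array 2 and -0.21 without STZ array 1. At the unadjusted threshold 4 were higher and 1 lower. Fos, a subunit of AP-1, differed by -4.05 ± 0.45, lying at 2.69 and 2.35 on the sham arrays and at -1.07 and -1.54 on the STZ arrays (adjusted p = 0.101 in limma). Bcl3, an NF-kB cofactor, was 2.45 ± 0.56 higher, Cebpe, a C/EBP factor of granulocytes, 1.94 ± 0.51, and Zc3h12a, an RNase that limits interleukin 17 signalling, 1.82 ± 0.70. Stat3 was not tested, because its value on STZ array 2 carried outlier flags.

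Proteases that process these proteins, their targets and their receptors made up the last list, with 14 tested genes. Of these 12 were higher and 2 lower, with a median of 0.76, and 5 and 1 at the unadjusted threshold. The median was 0.32 without sham array 2 and 1.32 without sham array 1. Mmp9, the gelatinase that lipocalin 2 binds, was 7.67 ± 0.55 higher, at -4.18 and -5.24 on the sham arrays and 3.38 and 2.99 on the STZ arrays (adjusted p = 0.0863 in limma). Fpr1, a receptor of formyl peptides, lay at -7.11 and -7.44 on the sham arrays, where no sample was well above background, and at -4.06 and -4.90 on the STZ arrays. Its measured difference was 2.56 (adjusted p = 0.171 in limma). Its sham signals lay above the lowest signal well above background and were not replaced, as for Il17a. Plscr1, a membrane protein that binds the Slpi protein, was 2.84 ± 0.76 higher, and Klk6, a kallikrein, 1.81 ± 0.60. The following were chosen after their values were seen, for their roles beside the members. The lipocalin 2 receptors differed from each other, with Lrp2 at -1.68 and Slc22a17 at -0.11 (adjusted p = 0.346 and 0.939). Klk7, a kallikrein that cuts cathelicidin, was 0.54 higher (adjusted p = 0.673).

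**Figure D4:**
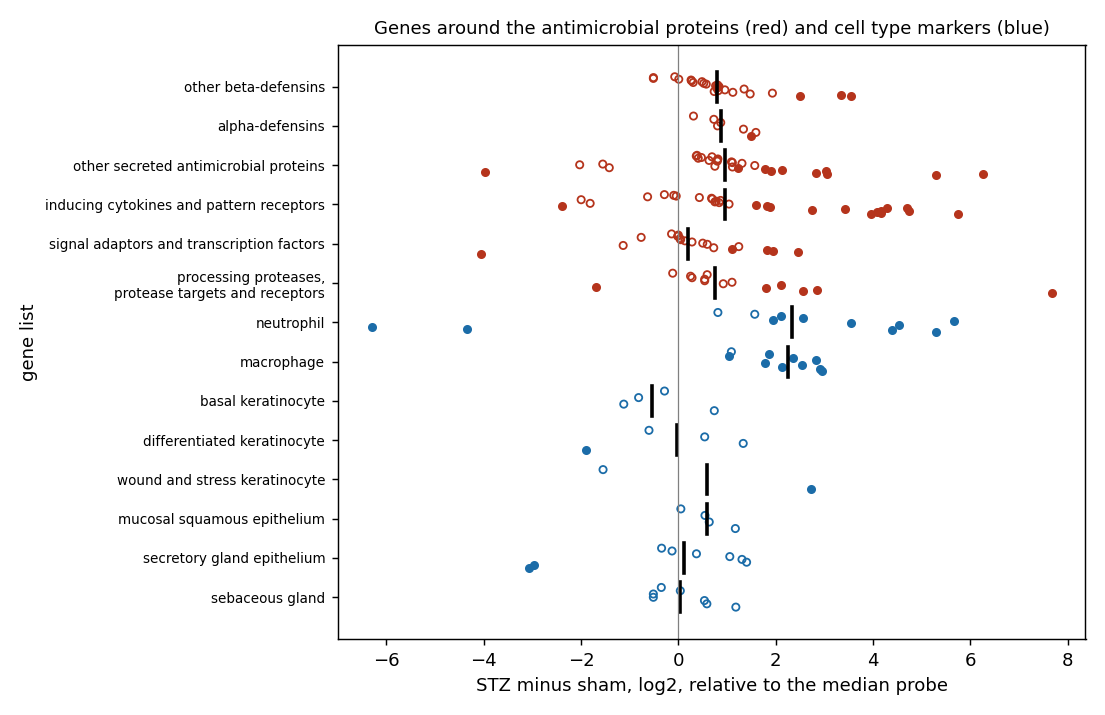
STZ minus sham log2 difference relative to the median probe (horizontal axis) of each tested gene in 6 pathway lists (red) and 8 cell type marker lists (blue), with filled points at an unadjusted p under 0.05 in limma and black bars at list medians. The neutrophil and macrophage medians lie at 2.33 and 2.25, the pathway medians between 0.21 and 0.96, and no gene passed after adjustment.

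Markers of cells that make these proteins differed alongside them. In bulk skin more cells of a type and more RNA per cell cannot be told apart. Of 15 neutrophil markers on the array 12 were tested, 10 higher and 2 lower, 8 and 2 of them at the unadjusted threshold, with a median of 2.33. The summed linear level of the 15, each gene taken relative to the 75th percentile, was 25.7 on both sham arrays and 66.0 to 68.8 on the STZ arrays. A few genes set that sum, so it is no measure of neutrophils: Padi4 and Ly6g6d made up 23.9 and 24.2 of it on the sham arrays, and S100a8, which keratinocytes also express, 54.8 and 64.4 on the STZ arrays. The 12 other markers summed to 0.40 and 0.31 on the sham arrays and to 9.21 and 3.78 on the STZ arrays. Fcgr3a lay at 4.38. Padi4 at -4.34 and Ly6g6d at -6.29 were lower, opposite to the other 10 tested markers. Whether these 2 genes mark neutrophils in this skin was not tested. Prtn3, Ctsg and Cxcr1 were well above background in no sham sample and in 3, 1 and 2 STZ samples. They were not tested, since the filter asks for 4 of the 8 samples. The granule genes Ltf and Ngp were 0.81 and 1.57 higher, the smallest differences among the 10 higher markers. Mmp8, Csf3r and Retnlg were 5.66, 4.54 and 3.55 higher. Csf3r, Fcgr3a, Mmp8, Retnlg and S100a8 were at least 2 higher on both STZ arrays, as were 2.26% of all tested probes. All 10 macrophage markers were higher, 9 at the unadjusted threshold, with a median of 2.25 and a summed level of 40.4 to 81.7 in sham and 287 to 417 in STZ. Lyz2 made up 13.5 to 36.2 of that sum in sham and 145 to 236 in STZ. The examples with the smallest p were Fcer1g at 2.96, Tyrobp at 2.91, Cd163 at 2.13 and Cd68 at 2.53. S100a8, Ltf, Ngp, Cebpe, Lyz2, Klk7 and Bpifa2 stand in both a marker list and a pathway list. So do Prtn3, Ctsg and Bpifb1, which were not tested.

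Keratinocyte and gland markers went both ways. The 4 basal keratinocyte markers had 1 higher and 3 lower, a median of -0.55 (0.01 without STZ array 2 and -1.07 without sham array 2) and summed levels of 178 to 334 in sham and 240 to 293 in STZ. The 4 tested differentiated markers had 2 each way and a median of -0.03 (-0.71 without STZ array 1 and 0.69 without STZ array 2). At the unadjusted threshold 1 was lower and 0 higher, Ivl at -1.89 (adjusted p = 0.265 in limma). The 5 on the array had sums of 41.0 to 57.2 and 45.4 to 108. Of the stress keratins, Krt16 lay at 2.73, past the unadjusted threshold, and Krt17 at -1.54, not past it. Their sums were 33.1 to 38.2 and 6.47 to 47.3. Krt17 was low on STZ array 2 alone, with levels of 5.04 and 5.23 in sham and 5.35 and 2.29 in STZ. The median of both genes, 0.59, was -0.84 without STZ array 1 and 2.07 without STZ array 2. The 6 markers of mucosal squamous epithelium on the array had sums of 0.81 to 0.82 and 1.04 to 1.91. Of these the keratins Krt4 and Krt76 were well above background in no sample. The 4 tested ones were all higher, with a median of 0.59, and 0 were at the unadjusted threshold. Secretory gland epithelium had 4 of 8 higher, with a median of 0.12 (-0.26 without STZ array 2 and 0.90 without STZ array 1). At the unadjusted threshold 2 were lower and 0 higher, Krt8 at -3.07 and Aqp5 at -2.96, and neither passed after adjustment. The sum of the gland markers was 5.08 to 12.1 in sham and 1.50 to 1.80 in STZ. Krt8 was the largest part of that sum on every array, so the sum mainly follows this gene. Its levels were 3.40 and 2.11 in sham and 0.07 and -0.24 in STZ. Sebaceous markers had 4 of 7 higher and a median of 0.04 (-0.65 without STZ array 1 and 1.29 without STZ array 2), with sums of 20.1 to 21.4 and 21.0 to 65.7. The part of any of these cell types in the antimicrobial genes' differences was not tested.

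The patterns over the 4 arrays can be likened to those of the 12597 other named genes, by the root mean square difference after each gene is centred on its own mean. With 4 arrays that share slide and groups this is a description. It uses the values that chose the 6 genes, and the sham values of Defb5 and of Fpr1 are not well above background in any sample, so distances that involve them rest partly on background. Defb4 and Defb5 were each the other's nearest gene, at 0.30, followed for both by Mmp9 (0.65 and 0.92) and Spp1 (0.78 and 0.93). Defb1 was nearest to Coq10b (0.04), Il6r (0.06) and Jdp2 (0.07). Slpi was nearest to Fcgr2al1 (0.20), Ly49s7 (0.21) and Ifit3 (0.25). Camp was nearest to Kcnn4 (0.12), Ctxn3 (0.15) and Itgal (0.17), and Lcn2 to Fpr1 (0.06), Kcna3 (0.11) and Akr1b8 (0.11).

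**Figure D5:**
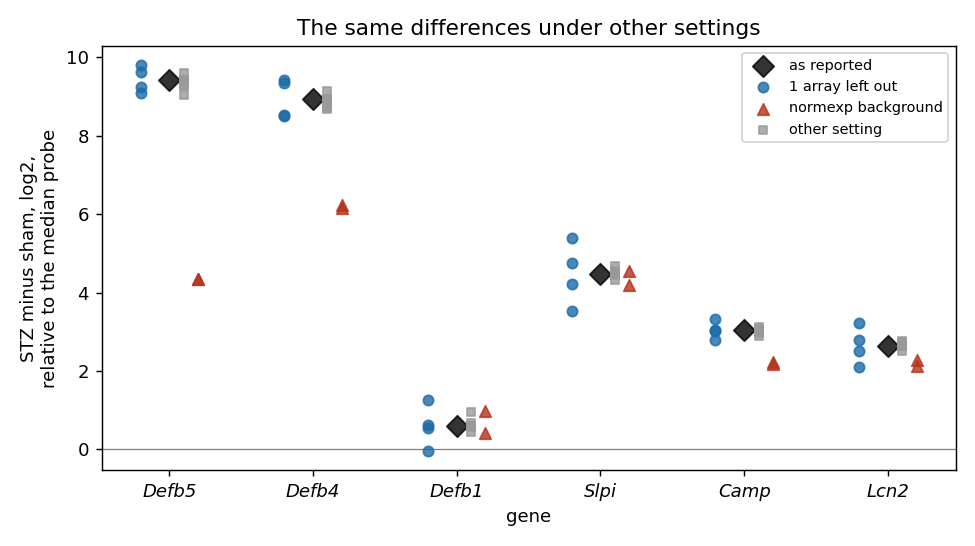
STZ minus sham log2 difference relative to the median probe (vertical axis) of the 6 genes (horizontal axis) as reported (black), with 1 array left out (blue), with normexp background correction (red) and under the other settings (grey). The difference stays above 0 everywhere except for Defb1 at -0.039 without STZ array 1, and normexp lowers Defb5 to 4.35 and Defb4 to 6.16. The median probe is taken anew for each setting.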

How the data were processed

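The headers name Agilent Feature Extraction 11.0.1.1, while the submitters' processing notes give 11.0.0.1. The deposited intensity used is the processed signal, which is background-subtracted per the file headers, with no step between arrays on record. Median spot and local background intensities, as deposited, served the normexp alternative (offset 50, on medians), and the deposited flags for spots are other values of 0 or 1.

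Here the log2 processed signal minus the 75th percentile of 42136 noncontrol spots was taken per sample, spots with outlier flags were left out, and the 2 scans of each array were averaged. The 21512 of 24684 probes with 4 or more of the 8 samples well above background and a value on every array were tested with lmFit and eBayes (limma 3.58.1, R 4.3.3, two-sided) and Benjamini-Hochberg adjustment. The p of a gene tests its difference on the 75th percentile scale. The fit was tested on simulated data. The simulated arrays varied less within a group than the real ones, so that test does not show how precise the fit is here. The number of arrays, 2 per group, limits the precision.

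The genes and lists were chosen with earlier results of these data known. Named beyond the 6 genes are up to 4 per list by smallest p and the 3 nearest patterns per gene. Krt2, Ltf, Ngp, Mmp8, Csf3r, Retnlg, S100a7a, Bpifb1 and Stat3 were named after their values were seen. So were genes listed as not above background, neighbours in gene order, and those said so in the text. A planned comparison of protein sequences was not run. A RefSeq table of GRCr8 named 14294 probes by accession, and the array design is on rn4, so no coordinates of probes are given. Promoter windows are RefSeq's on GRCr8. Alternatives were quantile normalization, normexp, other filters, each array left out, either scan alone, 8 separate samples and replicate blocks.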

Additional observations from a re-analysis of the deposited data

How the results depend on the processing

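With 2 arrays a group, precision is low and sham values of Defb5 are below background. Of the 6 genes Defb1 alone changed direction, to -0.039 without STZ array 1 (range -0.039 to 1.25 with 1 array left out). That change of sign came from the median over the tested probes, which was taken anew for each setting. The median of the 6, 3.75 as reported, was 3.20 with normexp, 3.31 with normexp and quantile normalization, 2.92 over the 4 genes left when all 8 samples had to be well above background, and 3.29 to 4.22 with 1 array left out. Probes past the threshold numbered 0, but 10 with normexp, 0 to 48 with 1 array left out, and 5220 with the 8 samples taken as separate, which counts each array 2 times. The 35 pathway genes at an unadjusted p under 0.05 became 65 with separate samples and 21 (without sham array 2) to 60 (without STZ array 1). At that threshold 1575 probes were higher and 758 lower, against 1231 and 1151 after quantile normalization, 924 and 561 with normexp, and 1143 and 1356 with both. With 1 array left out the higher probes numbered 677 to 5379 and the lower ones 305 to 1094. With 1 array left out, a group of 1 array is assumed to vary like the other group. The replicate block, which cannot change a difference of means, gave 0 probes past the threshold, 1581 higher and 590 lower, 34 pathway genes and a median of 3.75. The differences between replicates of the same number correlated at -0.19 between groups, so the crossed replicate block was added after seeing the data and gave 2083 and 762. The slide as a block was not run, since all 4 arrays share 1 slide. Causes were not tested.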
